A study of Mus musculus with 6 samples.

Results

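Inducible nitric oxide synthase (Nos2), the genes that make and recycle its cofactor tetrahydrobiopterin and the genes that supply or consume its substrate arginine were examined after radiotherapy of SCC7, a squamous cell carcinoma line of the mouse. The rule took the rows with the symbols Nos2, Gch1, Gchfr, Pts, Spr, Qdpr, Ass1, Asl, Arg1 and Arg2 from an expression table of 17030 genes. Of these 10 genes, 9 have a row, and Arg2 is not analysed here. The list was chosen by function and by measured values, the FPKM of irradiated against control libraries, so that comparison is given for these genes as a description, and no p-value is read for them.

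Irradiated SCC7 cells (3 libraries) are labelled as treated with radiotherapy, and control SCC7 cells (3 libraries) as untreated. A protocol text that gives the dose as 9 Gy stands on the records of all 6 libraries, controls included, so the groups follow the treatment label and the titles. All 6 libraries share the cell line, a high glucose medium with serum and the time label day 0, and no label gives how long after irradiation the cells were harvested. Whether replicate libraries stem from separate cultures is not labelled, so spreads and p-values may reflect technical variation alone. Values are FPKM, fragments scaled by transcript length and library total, and levels of different genes can therefore be set side by side.

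The libraries differed, in part in ways that the groups do not account for. FPKM summed to 652691 to 663489 in irradiated libraries, 878514 and 982553 in controls 1 and 2, and 693961 in control 3. Genes above 0 numbered 15131 to 15317 in irradiated libraries and 14086 to 14129 in controls. That gap followed the groups and bears on genes listed at 0 in controls, and its cause was not tested. In log2(FPKM + 1), the SD between irradiated libraries had a median of 0.08 over genes, and that between controls 0.30. On that scale control 3 lay nearer to the irradiated mean than to the mean of controls 1 and 2 for 69.4% of the 11103 genes that reached 1 FPKM in 3 or more libraries, and for 6 of the 8 listed genes that met this minimum. Log2 differences of the genes described are therefore given with and without control 3. Of the line's epithelial markers, Krt8 measured 371 to 393 FPKM in irradiated cells and 487 to 1361 FPKM in controls, and its partner Krt18 measured 100 to 113 FPKM in irradiated cells and 212 to 528 FPKM in controls, so that neither overlapped between the groups. Krt5, Krt14, Epcam, Cdh1 and Cldn4, markers of squamous epithelium and of epithelial junctions, did not exceed 0.49 FPKM in any library, and the squamous marker Trp63 did not exceed 0.21 FPKM outside control 3, where it measured 1.1 FPKM.

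Nitric oxide synthases convert arginine to nitric oxide and citrulline and work only with tetrahydrobiopterin bound. GTP cyclohydrolase I (Gch1) starts the synthesis of this cofactor from GTP, the products of Pts and Spr complete it, and the product of Qdpr regenerates it after use by aromatic amino acid hydroxylases. The product of Gchfr binds GTP cyclohydrolase I and mediates its feedback inhibition by tetrahydrobiopterin. Argininosuccinate synthase (Ass1) and argininosuccinate lyase (Asl) rebuild arginine from citrulline, while the arginases (Arg1, Arg2) break arginine down to ornithine and urea. Nos2 is best known from mouse macrophages, where interferon and bacterial products induce it.

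RefSeq promoter windows of build GRCm38.p6, the 250 bases before the annotated start, were at hand for 6 of the 10 genes (Gch1, Gchfr, Pts, Spr, Qdpr and Ass1) and not for Nos2, Asl, Arg1 and Arg2. The windows of Ass1, Gch1 and Gchfr are shown because their genes carry the contrasts described below: Ass1 was higher in irradiated cells, Gchfr was lower, and Gch1 changed direction with the controls chosen. Each is written 5′ to 3′ on the gene's strand, up to the first base of any annotated exon, with motif matches in capitals.
Ass1, chr2:31470020-31470206, plus strand: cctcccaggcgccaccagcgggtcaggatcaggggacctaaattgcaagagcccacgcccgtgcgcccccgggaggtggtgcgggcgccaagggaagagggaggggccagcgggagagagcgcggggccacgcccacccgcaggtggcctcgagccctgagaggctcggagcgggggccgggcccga
Gch1, chr14:47189414-47189663, minus strand: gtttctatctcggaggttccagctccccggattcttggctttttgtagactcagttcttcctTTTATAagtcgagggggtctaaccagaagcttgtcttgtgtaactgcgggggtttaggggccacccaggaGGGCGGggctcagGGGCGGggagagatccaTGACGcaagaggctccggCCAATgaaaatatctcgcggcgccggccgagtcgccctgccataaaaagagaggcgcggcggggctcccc
Gchfr, chr2:119167538-119167772, plus strand: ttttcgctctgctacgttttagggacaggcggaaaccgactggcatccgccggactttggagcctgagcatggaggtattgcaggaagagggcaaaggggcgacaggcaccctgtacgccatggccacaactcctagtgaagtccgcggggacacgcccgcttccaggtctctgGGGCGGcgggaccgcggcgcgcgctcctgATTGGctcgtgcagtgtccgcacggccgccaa
The capitals in Gch1 mark, in order, the reverse complement of the TATA box TATAAA, the GC box GGGCGG at 2 places, the core of the cAMP response element (TGACG) and the CCAAT box. Those in Gchfr mark a GC box and the reverse complement of a CCAAT box. A further GC box of Gchfr, as its reverse complement, begins 12 bases before the start, inside an annotated exon and so beyond the stretch shown. The matches of Ass1, a GC box and the E-box CACGTG, lie 63 and 36 bases before its start, inside an exon of another annotated transcript and so beyond the stretch shown.

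The motifs were searched on both strands in the full windows, and no matches overlapped in the windows shown. The GC box was found in 6 of the 6 windows and in 32.7% of the 32851 windows of all genes. The CCAAT box was found in 3 (Gchfr, Qdpr and Gch1), against 33.8% of all windows, and the TATA box and the core TGACG in Gch1 alone, against 12.4% and 17.8%. The E-box was found in Ass1 alone, against 6.0%. The interferon-stimulated response element GAAANNGAAA, the interferon gamma activated site TTCNNNGAA and the NF-kB site GGGNNTTTCC were found in 0 of the 6, against 3.0%, 7.0% and 1.4% of all windows, which says only that these letters are not in these 250 bases. The windows of the 6 genes held 59.2% to 75.6% G or C, against a median of 52.4% over all windows.

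Nos2 (NCBI gene 18126, chromosome 11, 78920787 to 78960226) measured 4.02, 5.82 and 2.17 FPKM in irradiated libraries 1 to 3 and was listed at 0 in controls 1, 2 and 3. The groups did not overlap, and irradiated library 3 held the lowest of the irradiated values. Nos2 met the minimum of 1 FPKM in 3 libraries through the irradiated libraries alone. No fold is given against a group listed at 0. A deposited 0 is a value rounded to 2 decimals, and 0 of 12 housekeeping genes checked was listed at 0 in any library. The lowest value among these 12 was 18.1 FPKM (Tbp), so they cannot tell whether genes as low as Nos2 are missed. Of the 17030 genes, 1771 were listed at 0 in all controls, and 13 of these, Nos2 included, had at least 1 FPKM in all irradiated libraries. Among those 13 was the chemokine gene Ccl4 (3.94, 6.40 and 4.78 FPKM in irradiated libraries), named after its values were seen. The 13 also held Gbp10, the histone gene H2ac19, Asdurf (10.4, 11.0 and 22.5 FPKM in irradiated libraries) and the defensin genes Defa22, Defa24, Defa33 and Defa43. The rest carry predicted names, and why these rows are at 0 in controls was not tested.

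Macrophage markers were checked beside Nos2. Of 10 such genes, 6 were at or below 0.1 FPKM in every library: Ptprc, which encodes the leukocyte antigen CD45, Adgre1 (F4/80), Csf1r, Itgam, Fcgr1 and C1qa. The summed level of the list was 28.9 to 29.7 FPKM in irradiated libraries and 17.5 to 22.8 FPKM in controls, most of it from Cd14. Lyz2, the lysozyme of myeloid cells, measured 2.37, 3.53 and 3.36 FPKM in irradiated cells and 0.52, 0.30 and 0.78 FPKM in controls. Mrc1 measured 0.42, 0.31 and 0.13 FPKM in irradiated libraries and 0.06, 0.03 and 0.01 FPKM in controls, without overlap. Cd68 measured 5.48, 5.63 and 4.01 FPKM in irradiated libraries and 4.52, 3.59 and 2.11 FPKM in controls, and its groups overlapped. Neutrophil markers summed to 11.4 to 12.7 FPKM in irradiated libraries and 2.93 to 3.97 FPKM in controls, nearly all of it S100a8, and endothelial markers to 0.29 to 0.51 FPKM and 0.36 to 0.63 FPKM. Fibroblast markers summed to 164 to 188 FPKM in irradiated libraries and 109 to 198 FPKM in controls, with Lum and Thy1 at or below 0.04 FPKM in every library. Of the other 4 fibroblast markers, Col1a1 (40.6 to 53.2 FPKM in irradiated libraries and 17.9 to 19.4 FPKM in controls) and Dcn (4.12 to 7.26 FPKM in irradiated libraries and 0.94 to 1.28 FPKM in controls) were higher in every irradiated library than in any control, and the groups overlapped for Col1a2 and Pdgfra. The part of myeloid cells or fibroblasts in the Nos2 signal was not tested. In bulk RNA, fewer cells with a transcript and less transcript per cell cannot be told apart.

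The other nitric oxide synthases were barely detected. Nos1, the neuronal enzyme, measured 0.06, 0.02 and 0.07 FPKM in irradiated cells and 0.03, 0.04 and 0.01 FPKM in controls. Nos3, the endothelial enzyme, measured 0.07, 0.07 and 0.03 FPKM in irradiated cells and 0.08, 0.06 and 0.08 FPKM in controls. Nos2 was therefore the synthase with the highest level in irradiated cells.

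**Figure D1:**
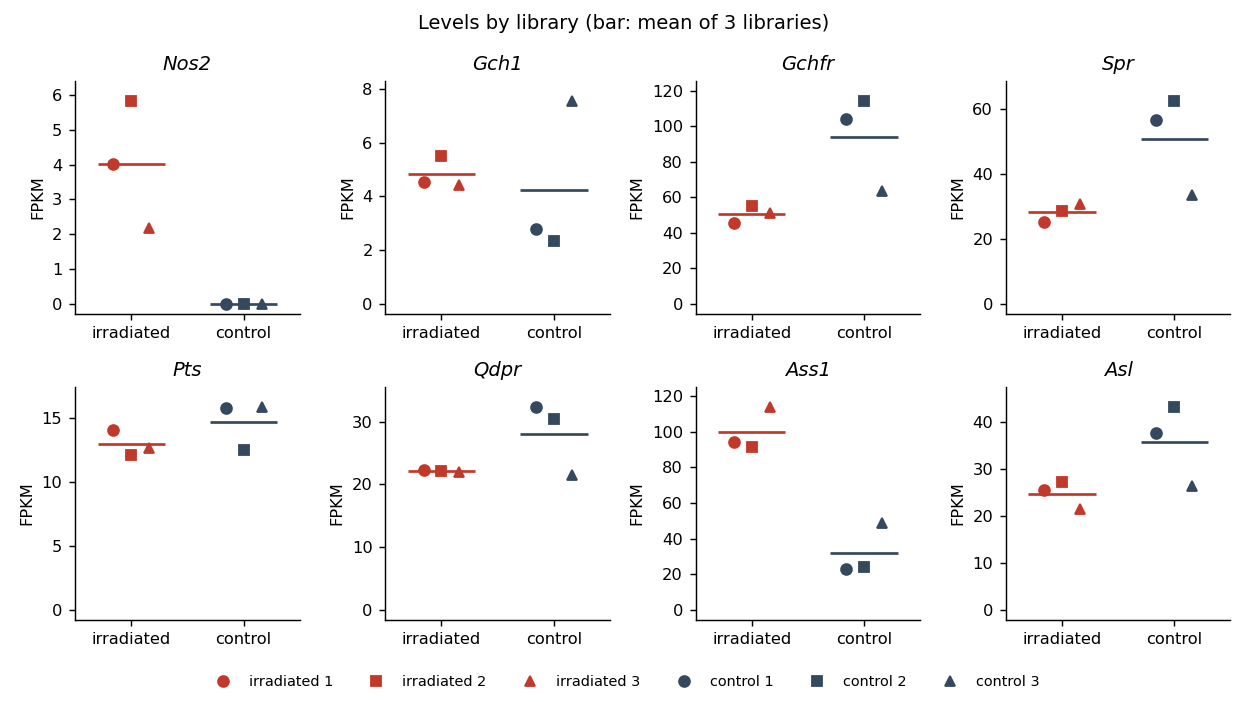
FPKM (vertical axes, from 0) of 8 listed genes in each of the 3 irradiated and 3 control libraries, with bars at the mean. Nos2 lies at 2.17 to 5.82 FPKM in irradiated libraries and at 0 in controls, Ass1 lies above every control, Gchfr and Spr lie below every control, and control 3 (triangle) stands apart from controls 1 and 2 for Gch1, Gchfr, Spr, Qdpr, Ass1 and Asl.

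Of the genes that make, restrain or recycle the cofactor, none was above every control in the irradiated libraries. Gch1 (NCBI gene 14528, chromosome 14, 47153895 to 47189413), the rate-limiting step, measured 4.55, 5.51 and 4.44 FPKM in irradiated libraries 1 to 3 and 2.80, 2.33 and 7.55 FPKM in controls 1 to 3. The irradiated values lay between controls 1 and 2 and the highest value, that of control 3. The means were 4.83 ± 0.589 FPKM in irradiated cells and 4.23 ± 2.89 FPKM in controls (SD, n = 3 each), a difference of 0.29 (SE 0.35) in log2(FPKM + 1), irradiated minus control. That difference was 0.71 without control 3 and -0.56 against control 3 alone, so its direction rested on the controls chosen. Trimmed-mean scaling gave 0.13 and quantile normalization -0.11.

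Gchfr (NCBI gene 320415, chromosome 2, 119167788 to 119172389), the inhibitory partner, measured 45.4, 55.0 and 51.3 FPKM in irradiated libraries and 104, 114 and 63.8 FPKM in controls. Every irradiated library lay below every control, with control 3 the nearest to them. The means were 50.6 ± 4.83 FPKM in irradiated cells and 94.0 ± 26.7 FPKM in controls (SD, n = 3 each). The log2 difference was -0.84 (SE 0.23), -1.10 without control 3, -0.33 against control 3 alone and -0.52 after a correction of each library for transcript length and GC content.

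Spr (NCBI gene 20751, chromosome 6, 85133680 to 85137764), which carries out the last reduction to tetrahydrobiopterin, measured 25.2, 28.5 and 30.6 FPKM in irradiated libraries and 56.4, 62.3 and 33.4 FPKM in controls. Its groups did not overlap either, and control 3 again lay closest to the irradiated values. The log2 difference was -0.79 (SE 0.24), -1.06 without control 3 and -0.25 against control 3 alone.

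Pts (NCBI gene 19286, chromosome 9, 50521617 to 50528716), whose product acts between those of Gch1 and Spr, varied little. It measured 14.0, 12.1 and 12.6 FPKM in irradiated libraries and 15.7, 12.5 and 15.8 FPKM in controls, and its groups overlapped. Its log2 difference was -0.17 (SE 0.14), -0.11 without control 3 and -0.27 against control 3 alone. It was -0.39 after quantile normalization, -0.35 after trimmed-mean scaling and -0.54 after the correction for length and GC content.

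Qdpr (NCBI gene 110391, chromosome 5, 45434032 to 45450229), the recycling enzyme, measured 22.3, 22.1 and 22.1 FPKM in irradiated libraries and 32.3, 30.5 and 21.6 FPKM in controls. The irradiated libraries were nearly alike and lay just above control 3. The log2 difference was -0.31 (SE 0.17), and -0.48 without control 3. With control 3 as the only control it was 0.04, the opposite direction.

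The ratio of the transcript levels of the inhibitory partner and its enzyme can be read within each library, where library scaling cancels. Effects of transcript length and GC content need not cancel. After the correction for them, the log2 difference was -0.52 for Gchfr and 0.03 for Gch1, beside -0.84 and 0.29 without it. The level of Gchfr was 9.98, 9.98 and 11.6 times that of Gch1 in irradiated libraries, and 37.2, 49.0 and 8.45 times in controls 1 to 3. Controls 1 and 2 lay far above the irradiated libraries, and control 3 lay below them. The level of Spr was 5.53, 5.17 and 6.89 times that of Gch1 in irradiated libraries and 20.1, 26.7 and 4.42 times in controls, with the same placing of control 3.

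The arginine supply genes Ass1 and Asl had differences of opposite sign. Ass1 (NCBI gene 11898, chromosome 2, 31470270 to 31520670), which joins citrulline and aspartate, measured 94.2, 91.4 and 114 FPKM in irradiated libraries and 23.1, 24.0 and 48.9 FPKM in controls. Every irradiated library lay above every control, at 99.7 ± 12.1 FPKM in irradiated cells and 32.0 ± 14.6 FPKM in controls (SD, n = 3 each). The log2 difference was 1.69 (SE 0.29), 2.03 without control 3 and 1.01 against control 3 alone. It was 1.74 after quantile normalization, 1.49 after trimmed-mean scaling and 1.81 after the correction for length and GC content, where the median over all genes was -0.01, -0.01 and -0.03.

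Asl (NCBI gene 109900, chromosome 5, 130011258 to 130024381), which releases arginine from argininosuccinate, measured 25.5, 27.2 and 21.6 FPKM in irradiated libraries and 37.8, 43.2 and 26.4 FPKM in controls. Control 3 lay inside the irradiated range and the other controls above it. The log2 difference was -0.49 (SE 0.20), -0.69 without control 3 and -0.10 against control 3 alone. Within a library, the level of Ass1 was 3.69, 3.36 and 5.27 times that of Asl in irradiated cells and 0.610, 0.555 and 1.85 times in controls. This ratio did not overlap between the groups, and control 3 lay between the irradiated libraries and the other controls.

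**Figure D2:**
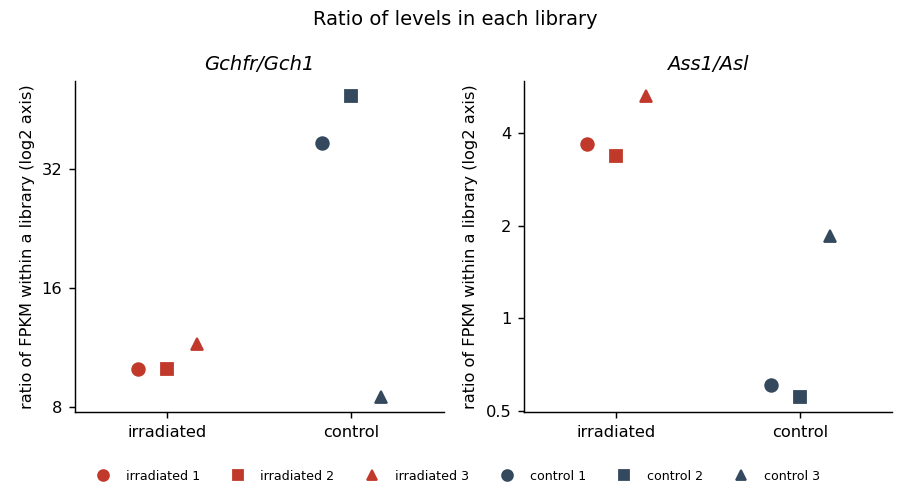
Ratio of the FPKM of Gchfr to Gch1 (left) and of Ass1 to Asl (right) within each irradiated and control library, on log2 axes, with a symbol for each library. The first ratio is 9.98 to 11.6 in irradiated libraries with control 3 at 8.45 below them, and the second is 3.36 to 5.27 in irradiated libraries, above all 3 controls.

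Arginine breakdown by Arg1 (NCBI gene 11846, chromosome 10, 24915207 to 24927470), the cytosolic arginase, was at the limit of the table. Arg1 was listed at 0 in irradiated libraries 1, 2 and 3 and at 0, 0 and 0.05 FPKM in controls. It did not pass the minimum of 1 FPKM in 3 libraries.

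By mean level, the order in irradiated cells was Ass1, Gchfr, Spr, Asl, Qdpr, Pts, Gch1, Nos2 and Arg1. Neighbours whose libraries overlapped there were Spr with Asl, Asl with Qdpr, and Gch1 with Nos2. By the mean of the 3 controls the order was Gchfr, Spr, Asl, Ass1, Qdpr, Pts, Gch1, Arg1 and Nos2, with overlaps of Spr with Asl, Asl with Ass1, Ass1 with Qdpr, and Arg1 with Nos2. Ass1 had the highest level of the listed genes in every irradiated library. It lay below Gchfr, Spr, Asl and Qdpr in controls 1 and 2 and below Gchfr alone in control 3. Gchfr stood apart from the next gene below it in both groups.

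Across all genes, irradiated and control libraries were compared with limma on log2(FPKM + 1), with Benjamini-Hochberg adjustment over the 11103 genes tested. At an adjusted p below 0.05, 12% of all genes were called (9.24% higher and 2.77% lower). The groups did not overlap for 4 of the 8 listed genes that met the minimum (Nos2 and Ass1 higher, Gchfr and Spr lower), against 45.4% of all genes (31.8% higher and 13.7% lower). Since this comparison was in view when the genes were listed, nothing is read from this share. The median log2 difference of the 8 was -0.24, against 0.17 over all genes tested. Over all genes, 1026 were called higher and 308 lower, against 663 and 564 after quantile normalization, 675 and 476 after trimmed-mean scaling and 807 and 828 after the correction for length and GC content.

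The Ass1 difference was 1.51 without control 1, 1.53 without control 2 and 1.59 to 1.75 without an irradiated library, beside the 2.03 without control 3.

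**Figure D3:**
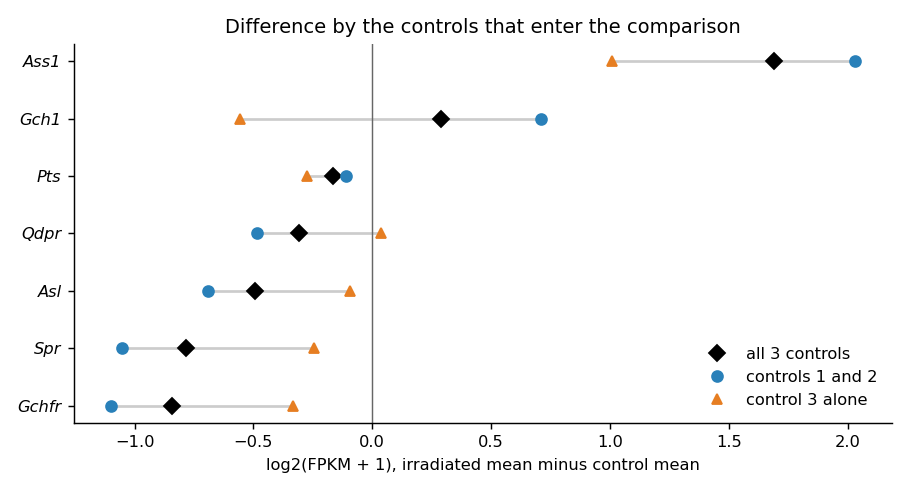
Difference in log2(FPKM + 1), irradiated mean minus control mean (horizontal axis), of 7 listed genes with all controls (diamonds), with controls 1 and 2 (circles) and with control 3 alone (triangles). Ass1 stays at 1.01 or above, Gchfr and Spr stay below 0, and Gch1 runs from -0.56 to 0.71.

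A further 75 genes around the pathway were listed by role, 66 of which have a row and 46 of which were tested. Of the 46, limma called 2 as higher and 2 as lower after irradiation, with a median log2 difference of 0.01. That share is not above the 12% called among all genes. In limma, 13 of the 46 had an unadjusted p below 0.05, beside 4251 of all 11103 genes. The count called was 0 in limma without control 1 or any irradiated library, where 56 to 180 of all genes were called. In those fits 6 to 9 had an unadjusted p below 0.05, beside 2281 to 2587 of all genes. The count called was 3 without control 2, beside 548 of 11055 genes. Without control 3, 13 were called higher and 13 lower, beside 69.1% of all genes.

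Among synthase partners, Spsb1, a ubiquitin ligase adaptor that targets the Nos2 protein for degradation, was the 1 gene called of 7 tested. Spsb1 (NCBI gene 74646, chromosome 4, 149896283 to 149955006) measured 6.93, 7.02 and 6.76 FPKM in irradiated libraries and 3.51, 3.89 and 2.92 FPKM in controls. Its groups did not overlap, and it rose by a log2 difference of 0.84 (SE 0.14, limma adjusted p = 0.0180), with 0.75 without control 3 and 1.01 against control 3 alone. Among scalings and on leaving out 1 library, the call was lost after quantile normalization (0.43, adjusted p = 0.149), without control 1 (adjusted p = 0.0870) and without irradiated library 1, 2 or 3 (0.154, 0.164 and 0.129). Spsb2 of the same list, named after its values were seen, went the other way. It measured 10.0, 10.2 and 9.15 FPKM in irradiated libraries and 14.8, 15.1 and 12.0 FPKM in controls, without overlap. The Spsb2 log2 difference was -0.47, with -0.57 without control 3 and -0.27 against control 3 alone, and it was not called (limma adjusted p = 0.0664).

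Of 6 tested transcription factors known to act on Nos2 in mouse macrophages, Irf1 was called higher. Irf1 (NCBI gene 16362, chromosome 11, 53770014 to 53778374) measured 34.7, 39.2 and 29.1 FPKM in irradiated libraries and 8.47, 6.52 and 21.5 FPKM in controls, and rose by 1.58 on the log2 scale (SE 0.40, limma adjusted p = 0.0488). The Irf1 value was 2.06 without control 3 and 0.64 against control 3 alone, and its call was lost in 11 of the 16 settings (adjusted p from 0.0513 to 0.209). Atf4 of the same list, named after its values were seen, went the other way. It measured 222, 228 and 237 FPKM in irradiated libraries and 353, 347 and 686 FPKM in controls, without overlap. The Atf4 log2 difference was -0.93, with -0.61 without control 3 and -1.58 against it alone. Atf4 was not called (limma adjusted p = 0.0661), nor were Rela, Nfkb1, Cebpb and Hif1a, whose differences were above 0.

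The cyclic GMP kinase Prkg2 was the 1 gene called of 3 tested in the list of nitric oxide sensing and cyclic GMP. The other cyclic GMP kinase listed, Prkg1, named after its values were seen, did not exceed 0.01 FPKM in any library. Prkg2 (NCBI gene 19092, chromosome 5, 98929773 to 99037375) measured 31.4, 28.9 and 27.7 FPKM in irradiated libraries and 63.1, 73.1 and 47.7 FPKM in controls, and every irradiated library lay below every control. It fell by 1.02 on the log2 scale (SE 0.18, limma adjusted p = 0.0213), with a difference of -1.18 without control 3 and -0.68 against control 3 alone. On leaving out 1 library, the call was lost without control 1 (adjusted p = 0.112) and without irradiated library 1, 2 or 3 (0.139, 0.161 and 0.141). The soluble guanylate cyclase genes, which bind nitric oxide, are not analysed here.

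In the ornithine and polyamine branch, where the arginase product goes, 1 of 14 tested genes was called. Oaz1 (NCBI gene 18245, chromosome 10, 80826656 to 80829290), the antizyme that sends ornithine decarboxylase to the proteasome, measured 374, 408 and 392.5 FPKM in irradiated libraries and 814, 751 and 734 FPKM in controls. The controls were close to one another here, and the groups did not overlap. RefSeq annotates a transcribed pseudogene, Oaz1-ps, and how the authors divided reads between such copies is not known. Oaz1 fell by 0.97 on the log2 scale (SE 0.14, limma adjusted p = 0.00937), with a difference of -0.997 without control 3 and -0.91 against control 3 alone. The difference was -0.51 after quantile normalization, where the call was lost (adjusted p = 0.0715). On leaving out 1 library it was lost without control 1 (adjusted p = 0.0650) and without irradiated library 1, 2 or 3 (0.133, 0.119 and 0.108).

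The remaining lists held no called gene, and for each the member with the smallest p is given. Of 6 arginine transport genes tested, Slc3a2, the shared heavy chain of several amino acid exchangers, measured 107, 113 and 118 FPKM in irradiated libraries and 125, 158 and 217 FPKM in controls (log2 difference -0.53, limma adjusted p = 0.119, with -0.32 without control 3 and -0.94 against it alone). Of 4 genes of arginine methylation and methylarginine removal, Prmt1, an arginine methyltransferase, measured 153, 153 and 155 FPKM in irradiated libraries and 265, 308 and 179 FPKM in controls (-0.67, adjusted p = 0.0768, with -0.89 without control 3 and -0.22 against it alone). Both lay below every control in all irradiated libraries, and neither passed the test. Of 2 genes tested from urea cycle entry and creatine synthesis, Gatm, which takes its amidino group from arginine, measured 15.1, 12.0 and 13.6 FPKM in irradiated libraries and 7.74, 3.56 and 11.8 FPKM in controls (0.86, adjusted p = 0.131, with 1.20 without control 3 and 0.18 against it alone). Of 4 genes of cofactor recycling and use, Pcbd2 measured 40.7, 35.8 and 40.4 FPKM in irradiated libraries and 68.1, 79.3 and 30.7 FPKM in controls (-0.49, adjusted p = 0.306). Control 3 lay below the irradiated libraries, and the Pcbd2 difference was -0.90 without control 3 and 0.33 against it alone. The main cationic amino acid transporter gene Slc7a1, named after its values were seen, measured 17.8, 17.0 and 16.8 FPKM in irradiated libraries and 12.4, 12.1 and 33.7 FPKM in controls, with a log2 difference of 0.46 without control 3 and -0.93 against it alone.

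**Figure D4:**
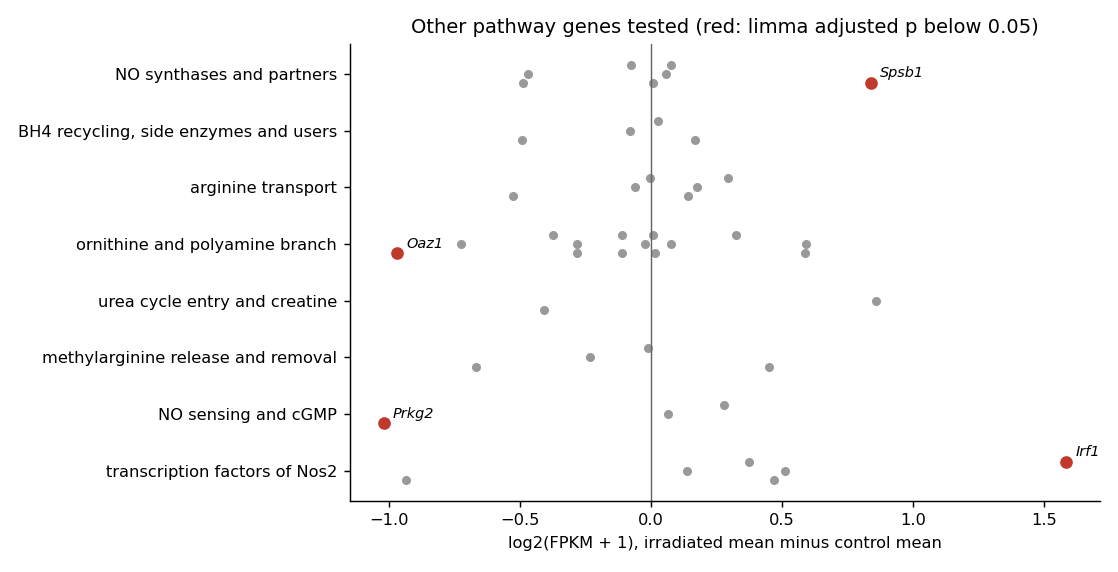
Difference in log2(FPKM + 1), irradiated mean minus control mean (horizontal axis), of the 46 other pathway genes tested, by list (rows). Irf1 and Spsb1 (red, right) and Oaz1 and Prkg2 (red, left) passed limma at an adjusted p of 0.05, and the grey points did not.

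The profiles of Nos2 and Gch1 over the 6 libraries were set against those of other genes tested. The measure was the root mean square difference of log2(FPKM + 1) after centring each gene. Predicted and clone names, and any gene not reported here, were left out of the ranking. The 5 genes most like Nos2 were Rsad2 (0.11), Gbp5 (0.14), Lgals3bp (0.22), Sp100 (0.23) and Trim34b (0.24). Nos2 was listed at 0 in controls, so the size of its difference on this scale depends on the 1 added before the log. Its likeness to genes well above 0 in controls, such as Lgals3bp (74.4 to 99.4 FPKM in controls), rests on that choice. Rsad2, Gbp5, Lgals3bp and Sp100 are known as interferon-stimulated genes, and Trim34b has close copies between which reads can be split. Rsad2, which encodes viperin, measured 3.92, 6.95 and 2.79 FPKM in irradiated libraries and 0, 0.02 and 0 FPKM in controls. Like Nos2, all 5 were highest in irradiated library 2 and lowest of the irradiated values in library 3. The choice by likeness over these same libraries favours such a shared order, so nothing is read from it.

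The 5 genes most like Gch1 were Sft2d2 (0.05), Timp3 (0.07), Cebpb (0.07), Ghitm (0.07) and Rmnd5a (0.08). Their highest value was in control 3. Cebpb, a transcription factor of inflammatory genes, measured 64.5, 77.8 and 71.2 FPKM in irradiated libraries and 42.5, 38.6 and 98.0 FPKM in controls. These likenesses were picked as the smallest among the genes kept in the ranking, from 11103 tested over 6 libraries, and are a description.

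**Figure D5:**
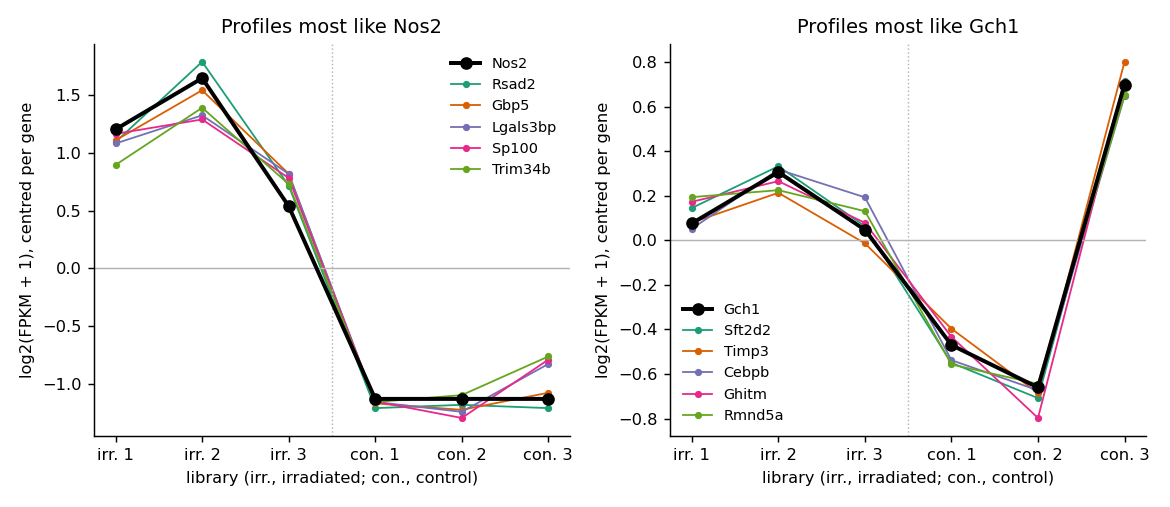
log2(FPKM + 1) centred on each gene's mean (vertical axis) in irradiated libraries 1 to 3 and controls 1 to 3, for Nos2 (left) and Gch1 (right) in black and the 5 genes most like each in colour. The Nos2 set is above its mean in every irradiated library and below it in every control, and the Gch1 set peaks in control 3.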

How the data were processed

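RNA from 3 irradiated and 3 control SCC7 samples was depleted of ribosomal RNA before library construction, per the labels' protocols. The deposited values are FPKM, per the file headers, made by the authors for 17030 genes and rounded to 2 decimals. Reads were aligned with HISAT to GRCm38.p6, per the submitters' processing notes. The sources used here do not name a counting tool, an annotation or filters. FPKM holds no read numbers, so depth is unknown and no counting interval is given, and abundant transcripts can move the scale of a whole library.

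Genes that reached 1 FPKM in 3 or more libraries were fitted as log2(FPKM + 1) by limma (version 3.58.1, R version 4.3.3), with 2 groups, no other term, and trend and robust eBayes. Benjamini-Hochberg adjustment covered all genes tested, and calls were made at an adjusted p below 0.05. The fit was also run on simulated data, with independent noise of the same spread in both groups. The libraries here differ in spread between the groups, so that run does not tell how the calls hold under such differences. The fit assumes equal variance in both groups. log2 differences understate changes of low genes.

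The listed genes, the pathway lists and the tests were chosen with earlier results of these data known. The text names all listed genes, Nos1, Nos3, called genes of each pathway list (otherwise the member with the smallest p) and the 5 profiles most like Nos2 and Gch1; others are said to be chosen after their values were seen. A further gene is left out of the lists and is not reported here. Motifs were chosen with the promoter sequences in view. Gene coordinates are RefSeq positions on the same build, 1-based. Alternatives were a filter at 5 FPKM or none, trimmed-mean scaling (log ratios between libraries), quantile normalization, plain eBayes, an array weight per group, 0.1 as the pseudocount, each sample left out, and a block for the sample number. Control 3 as the only control and a correction for transcript length and GC content (splines, 4 degrees of freedom each) were added after seeing the data.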

Additional observations from a re-analysis of the deposited data

How the results depend on the processing

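The count of all genes called was 1334, against 727 with the filter at 5 FPKM, 300 with the sample number as a block, 4093 with control 3 as the only control and 56 to 7638 on leaving out 1 library. The count of listed genes past the same threshold is given as a description, since they were listed on this comparison, and nothing is read from it. It was 2 of 8 (Nos2 and Ass1), beside 12% of all genes tested, and Nos2 met the minimum through the irradiated libraries alone. With the filter at 5 FPKM it was 1 (Nos2 and Gch1 then untested), beside 727 of 8889 genes. After the correction for length and GC content it was 4 (Nos2 and Ass1 higher, Gchfr and Pts lower), beside 1635 of 10930 genes. On leaving out 1 library it was 0 to 7, with 7 without control 3, where 69.1% of all genes were called. The other pathway genes called were 4, against 0 with the block (12 at an unadjusted p below 0.05 in limma; adjusted p = 0.0742 for Spsb1, 0.0667 for Oaz1, 0.0516 for Prkg2 and 0.0846 for Irf1), 19 with control 3 alone and 0 to 26 on leaving out 1 library. The count of listed genes was also 2 under the block. No label says whether the numbers of the samples pair them. Deviations from the group means correlated at -0.115, 0.0203 and -0.159 for numbers 1 to 3, which cannot settle it with 3 libraries per group. Quantile normalization and trimmed-mean scaling moved the median log2 difference of all genes from 0.17 to -0.01. Comparisons with control 3 alone take their spread from the irradiated libraries. The causes of these changes were not tested. Depth is unknown, so whether Nos2 in controls lies below detection or is absent cannot be told.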
